A study of Homo sapiens with 4 samples.

Results

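The protein-coding ZNF genes that lie outside chromosome 19 were examined in HEK293, a human embryonic kidney cell line, and in Synph-293, its derivative with synphilin-1 overexpression. A gene belonged to the set if its symbol was ZNF followed by a number, its chromosome was not 19 and its counts over the 4 libraries summed to at least 40. Of 510 protein-coding ZNF genes among the 60676 genes of the table, 264 lay outside chromosome 19, and 238 of these on 20 chromosomes met the minimum. The remaining 26 fell short of it, and 13 of those had 0 counts in every library. Nearest above the minimum were ZNF843, ZNF157 and ZNF860, with summed counts of 60, 66 and 75, and nearest below it were ZNF705E, ZNF648 and the readthrough gene ZNF670-ZNF695, with 39, 27 and 12. ZNF334 and ZNF711 had been singled out in the definition of the set because they differ between the groups, so their difference is described below without a test.

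Most ZNF genes encode proteins with tandem zinc fingers of the C2H2 type. Each such finger is a small fold held by a zinc ion and often able to contact DNA. Many of these proteins also carry a KRAB domain, which recruits the corepressor TRIM28 and through it the histone methyltransferase SETDB1. Proteins with KRAB are best known for silencing transposable elements. Others lack KRAB and act as transcriptional activators, as parts of chromatin complexes, or on RNA and ribosomes. In the human genome they are most densely packed on chromosome 19, and smaller clusters lie on several other chromosomes.

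RNA was sequenced from 2 libraries of untreated wild-type HEK293 and from 2 libraries of untreated HEK293 overexpressing synphilin-1, all grown in DMEM with serum. The labels do not tell whether replicates were separate cultures, nor whether Synph-293 was 1 clone or a pool, so every p-value below measures the spread between these libraries, which may be technical. Library totals lay between 13284417 and 16998732 counts. Counts of SNCAIP, which encodes synphilin-1, were 17 and 16 for HEK293 and 22911 and 24834 for Synph-293. Of the kidney epithelial markers, KRT8 had 658 and 766 CPM (counts scaled to library size) in HEK293 and 1546 and 1344 CPM in Synph-293, and PAX2 had 0.771 and 0.599 against 5.25 and 4.97 CPM, both called higher (edgeR adjusted p = 0.00519 and 0.000184). KRT18, at 210 to 464 CPM, and LHX1, at 6.14 to 8.53 CPM, were not called. CDH1, EPCAM and PAX8 stayed under 1 CPM and CDH6 had 0 counts. NEFL, a neurofilament gene often detected in this line, was at 34.5 and 40.4 against 177 and 160 CPM and was called higher (edgeR adjusted p = 1.07e-05). NEFM, another neurofilament gene, stayed under 1 CPM and was not tested, and INA and STMN2 had 0 counts. The summed level of 4 endothelial markers was 2.91 and 3.6 CPM in HEK293 and 6.26 and 4.91 CPM in Synph-293. That of 5 fibroblast markers, nearly all of it COL1A1, was 37.2 and 38.5 against 60.9 and 57.5 CPM. That of 4 blood markers, nearly all of it HBB, was 33.2 and 34.3 against 23.9 and 31.7 CPM, with PTPRC and CD3E at or near 0. The part of these markers in the results was not tested.

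ZNF334, ZNF711, ZNF747 and ZNF501 carried the clearest differences, and the 250 bases before their annotated starts are shown so that their CG dinucleotides, the sites of DNA methylation, can be compared. The sequences are from RefSeq on GRCh38.p14, 5′ to 3′ on the strand of the gene, with each CG in capitals. That of ZNF334 is chr20:46513560-46513809 on the minus strand, that of ZNF711 is chrX:85243741-85243990 on the plus strand, that of ZNF747 is chr16:30534859-30535108 on the minus strand and that of ZNF501 is chr3:44729385-44729634 on the plus strand.
ZNF334: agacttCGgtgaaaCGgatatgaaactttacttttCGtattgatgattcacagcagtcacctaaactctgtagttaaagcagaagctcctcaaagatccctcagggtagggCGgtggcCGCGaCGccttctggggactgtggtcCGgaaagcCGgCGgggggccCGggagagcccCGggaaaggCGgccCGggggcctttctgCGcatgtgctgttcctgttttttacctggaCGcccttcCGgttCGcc
ZNF711: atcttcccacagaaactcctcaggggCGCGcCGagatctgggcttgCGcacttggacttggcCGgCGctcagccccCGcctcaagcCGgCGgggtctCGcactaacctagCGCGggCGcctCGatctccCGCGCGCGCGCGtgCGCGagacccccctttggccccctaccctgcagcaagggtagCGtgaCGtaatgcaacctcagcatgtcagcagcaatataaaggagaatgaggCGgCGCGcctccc
ZNF747: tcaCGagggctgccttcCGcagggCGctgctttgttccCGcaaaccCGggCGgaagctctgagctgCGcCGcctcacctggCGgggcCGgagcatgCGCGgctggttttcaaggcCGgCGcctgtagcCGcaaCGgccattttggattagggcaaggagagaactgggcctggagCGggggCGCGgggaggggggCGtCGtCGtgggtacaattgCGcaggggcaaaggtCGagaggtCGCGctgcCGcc
ZNF501: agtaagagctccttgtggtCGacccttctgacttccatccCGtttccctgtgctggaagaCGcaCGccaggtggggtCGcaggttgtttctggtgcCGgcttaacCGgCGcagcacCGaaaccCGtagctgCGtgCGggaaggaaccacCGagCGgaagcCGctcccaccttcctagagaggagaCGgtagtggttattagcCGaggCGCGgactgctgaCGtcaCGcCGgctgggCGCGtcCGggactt
These windows held 18, 27, 27 and 25 CG dinucleotides, in that order. Over the 197 members with an entry in the RefSeq table the median was 19, with quartiles of 14 and 26, over 21139 promoters of protein-coding genes it was 17, with quartiles of 5 and 26, and over all 34943 promoters of the same length it was 11. The GC box GGGCGG, searched on both strands, was found in the windows of ZNF334 and ZNF747 and not in those of ZNF711 and ZNF501. It occurred in 61.9% of the members' windows, in 54.2% of those of protein-coding genes and in 42.5% of all promoters. The annotated start of ZNF747 lay 489 bases downstream of the 5′ end of the gene in the deposited table. Its window therefore lay inside the deposited gene and not before it. The annotated starts of the other 3 lay at most 41 bases from the deposited 5′ ends.

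ZNF334, a KRAB zinc finger gene of chromosome 20 (ENSG00000198185, 46499630 to 46513559, minus strand, GRCh38), was without a count in both HEK293 libraries and had 378 and 348 counts in the Synph-293 libraries. These correspond to 22.5 and 21.4 CPM. Their mean of 21.9 CPM was at least 109-fold higher than the mean of 0.202 CPM that 3 counts in each HEK293 library would give. For its 30 nearest genes outside the ZNF family the median log2 fold change was -0.05. ZNF711 (ENSG00000147180, chromosome X, 85244032 to 85273362, plus strand), an activator of the ZFX family in which mutations cause X-linked intellectual disability, was present in both groups. It had 7.35 and 6.14 CPM in HEK293 and 123 and 139 CPM in Synph-293, a ratio of 19.4 between the means. Per transcript length its level went from 2.58 and 2.2 TPM (length-scaled abundance) to 46 and 47.9 TPM. The 30 nearest genes of ZNF711 outside the ZNF family had a median log2 fold change of 0.42. No gene of the deposited annotation overlapped ZNF334 or ZNF711. In bulk RNA, more cells with a transcript and more transcript per cell cannot be told apart.

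Most other members differed little. Of 238 members 237 were tested, and 11 were higher and 18 lower in Synph-293 (edgeR quasi-likelihood test, adjusted p under 0.05 over 16421 genes), ZNF334 and ZNF711 included. Without those 2 genes, 27 of 235 members or 11.5% were called, against 16.6% of all genes tested and 17.2% of protein-coding genes tested. The members' 9 rises compare with 10.0% of all genes called higher and their 18 falls with 6.58% called lower, or with 10.3% and 6.95% of protein-coding genes. Upper quartile scaling gave 15 higher and 10 lower members. A change of at least 2-fold was found for 7 called members out of 237, and for 5 out of 235 without ZNF334 and ZNF711. Of all genes tested, 8.56% were called with such a change. In 205 of the 237, or 86.5%, the fitted change was under 1.5-fold, against 76.3% of all genes. The median log2 fold change was -0.008 over the members and -0.013 over all genes. The libraries of the groups did not overlap for 153 members, or 64.6%, against 59.6% of all genes. The 225 ZNF genes of chromosome 19 with the same minimum had 29 rises and 4 falls with a median of 0.297, and their nearest other genes had a median of 0.34. The difference between the sets was not tested.

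**Figure D1:**
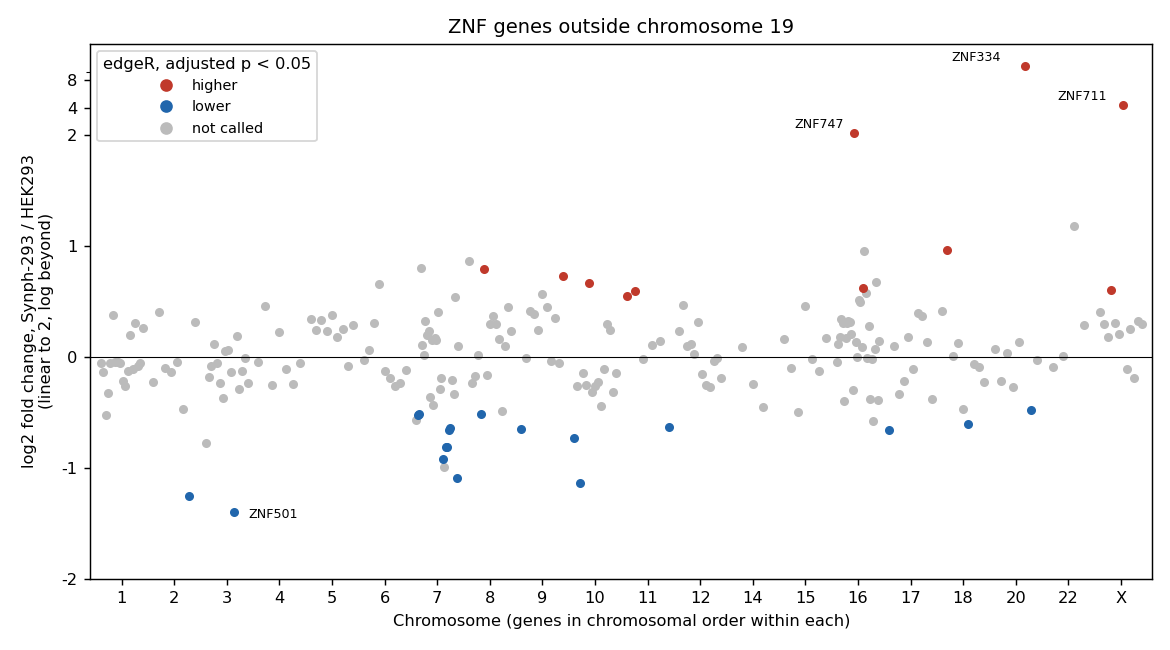
Log2 fold change of each of the 237 tested ZNF genes outside chromosome 19, placed by chromosome, with genes called by edgeR coloured by direction. The vertical axis is linear up to 2 and logarithmic beyond. ZNF334, ZNF711 and ZNF747 lie above all other members, the height of ZNF334 being set by the prior count of the fit. Of the 18 lower genes 8 are on chromosome 7, which holds 28 of the 238 members. Among its tested genes outside the ZNF family 13.2% were called lower, against 6.58% of all genes.

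Most of the members' calls were lost when a Synph-293 library was left out, and calls over all genes also became fewer. The spread in such a fit comes from the HEK293 libraries alone. ZNF747, ZNF501 and ZNF25 were called whichever library was left out and under each of the other planned settings, and ZNF334 and ZNF711 are left aside here because the definition chose them for their difference. The other 24 calls were each lost when at least 1 Synph-293 library was left out. Calls numbered 13 and 8 with Synph-293 replicate 1 or 2 left out, and 37 and 39 with HEK293 replicate 1 or 2 left out. With the replicate number as a block, 5 members were higher and 7 lower, each of these 12 also called without the block. The numbers of calls given for the block and for each library left out are over all members, ZNF334 and ZNF711 included.

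ZNF747 (ENSG00000169955, chromosome 16, 30530367 to 30535347, minus strand), a KRAB zinc finger gene, was the largest rise after the 2 genes of the definition. Its counts were 60 and 30 in HEK293 and 221 and 193 in Synph-293, so that 2.9 ± 0.927 CPM stood against 12.5 ± 0.939 CPM (SD, n = 2 each). Both Synph-293 libraries lay above both HEK293 libraries. The log2 fold change was 2.09 ± 0.25 (SE; edgeR adjusted p = 0.000266). It was 1.85 (edgeR adjusted p = 0.000637) when the median of the 30 nearest genes was removed. An antisense RNA that overlaps its start, AC002310.1, was level between the groups, at 1.48 and 1.35 against 1.25 and 1.41 CPM. AC002310.4, a protein-coding entry on the same strand that covers most of ZNF747, had at most 11 counts in a library.

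ZNF521, a cofactor that represses EBF1 and is known from blood and neural progenitors, and ZNF33B were the other rises that did not follow their neighbours. ZNF521 had 3.85 and 3.75 CPM in HEK293 and 7.33 and 7.49 CPM in Synph-293, a log2 fold change of 0.96 ± 0.23 (SE; edgeR adjusted p = 0.0148). The replicates lay close together and the groups apart, while the neighbours had a median of -0.18. It was not called when Synph-293 replicate 2 was left out (edgeR adjusted p = 0.0729). ZNF33B had 42.6 and 40.5 CPM in HEK293 and 58.5 and 73.4 CPM in Synph-293, a log2 fold change of 0.67 ± 0.16 (SE; edgeR adjusted p = 0.0184, and 0.308 with that replicate left out). Its close paralogue ZNF33A, on the other side of the centromere of chromosome 10, was at 79.3 and 92.5 against 71.8 and 83.5 CPM and was not called. Reads shared by such near-identical copies may have been assigned to either, so the split between ZNF33A and ZNF33B is uncertain.

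The other rises lay where the median of the neighbouring genes was above 0. ZNF646 on chromosome 16 went from 37.7 ± 3.86 to 57.9 ± 4.57 CPM, and its neighbours had a median log2 fold change of 0.35. ZNF195 went from 51.0 ± 0.889 to 74.6 ± 1.54 CPM and ZNF215 from 14.4 ± 1.33 to 21.8 ± 1.95 CPM, both on the short arm of chromosome 11, with neighbour medians of 0.47 and 0.65. ZNF81 on chromosome X went from 16.2 ± 2.73 to 24.6 ± 1.79 CPM and ZNF79 on chromosome 9 from 5.75 ± 0.337 to 9.51 ± 1.74 CPM (SD, n = 2 each). Their neighbour medians were 0.42 and 0.52. ZNF572, from 3.01 ± 0.02 to 5.23 ± 0.236 CPM, had an edgeR adjusted p of 0.049994, at the threshold itself, a neighbour median of 0.21 and a value of 0.58 with it removed. The edgeR adjusted p of the other 5 lay between 0.0219 for ZNF646 and 0.0459 for ZNF79, and none of the 6 was called with the neighbours' median removed.

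**Figure D2:**
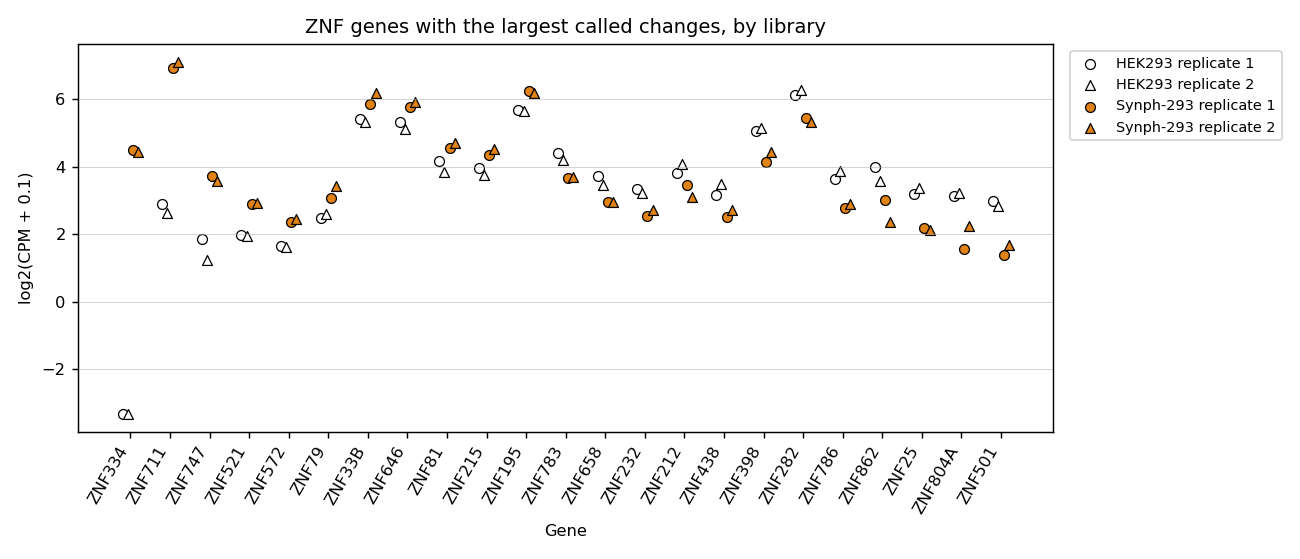
Log2(CPM + 0.1) in each library for the called members with the largest rises, on the left, and falls, on the right, HEK293 in white and Synph-293 in orange. ZNF334 is at 0 CPM in both HEK293 libraries, and the groups do not overlap for any gene shown, which the rule for showing them required.

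ZNF501 and ZNF25 were the falls that held in every setting run. ZNF501 (ENSG00000186446, chromosome 3, 44729596 to 44737083, plus strand) had 131 and 95 counts in HEK293 and 42 and 51 in Synph-293. At 7.77 and 7.12 against 2.5 and 3.13 CPM the groups were well apart, with a log2 fold change of -1.40 ± 0.25 (SE; edgeR adjusted p = 0.00291). It is the last of 7 members that lie together on the short arm of chromosome 3, and the other 6, ZNF445, ZNF852, ZNF660, ZNF197, ZNF35 and ZNF502, were not called and had log2 fold changes between -0.37 and 0.06. ZNF445, which helps to maintain genomic imprints, averaged 87.9 CPM in HEK293 against 84.4 CPM. ZNF25 on chromosome 10 had 9.07 and 10.3 CPM in HEK293 and 4.47 and 4.3 CPM in Synph-293, a log2 fold change of -1.14 ± 0.22 (SE; edgeR adjusted p = 0.00482). Its neighbours were lower as well, with a median of -0.30, and with that removed the value was -0.84 (edgeR adjusted p = 0.029). The 4 other tested genes within 1 Mb of its cluster all had negative values, with a median of -0.86. Of these, 1 was called lower. ZNF248, ZNF33A and ZNF37A, the members that lie beside ZNF25, were not called, at -0.26, -0.14 and -0.26.

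ZNF804A, a gene at a locus associated with schizophrenia, fell from 8.72 and 9.29 CPM to 2.86 and 4.66 CPM. The Synph-293 libraries differed from each other but stayed below both HEK293 libraries, with a log2 fold change of -1.26 ± 0.26 (SE; edgeR adjusted p = 0.00743, and 0.0616 with Synph-293 replicate 1 left out). With the neighbours' median of -0.23 removed the value was -1.03 and was still called (edgeR adjusted p = 0.0257).

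A cluster near the end of the long arm of chromosome 7, from 149069641 to 149867479, held 10 members. Of these, 6 were called lower, against 6.58% of all genes and 13.2% of the genes of chromosome 7 outside the ZNF family. For 9 of the 10, both Synph-293 libraries lay below both HEK293 libraries, as for 29.1% of all genes. ZNF282, which represses the promoter of a human retrovirus, had 69.5 and 76.8 CPM in HEK293 and 43.5 and 39.9 CPM in Synph-293, a log2 fold change of -0.81 ± 0.15 (SE; edgeR adjusted p = 0.00462). ZNF398 went from 34.3 ± 1.15 to 19.6 ± 2.8 CPM, ZNF786 from 13.5 ± 1.51 to 7.08 ± 0.403 CPM and ZNF862 from 13.8 ± 2.92 to 6.48 ± 2.05 CPM (SD, n = 2 each). ZNF212 and ZNF783 had log2 fold changes of -0.66 and -0.64. The highest edgeR adjusted p of the 6 was 0.0448, for ZNF212. ZNF425 was not called, at 2.61 and 4.72 against 1.85 and 1.78 CPM. Neither were ZNF777 nor ZNF746, with log2 fold changes of -0.21 and -0.34 (edgeR adjusted p = 0.399 and 0.163). ZNF746 encodes PARIS, a repressor of PGC-1alpha that the Parkinson disease ligase parkin marks for degradation, and had 42.0 and 48.3 CPM in HEK293 and 37.1 and 34.4 CPM in Synph-293. ZNF467 alone pointed upward, at 5.16 and 3.75 against 7.15 and 5.89 CPM, and was not called.

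Part of the genes around this cluster had lower values as well. Of 16 other tested genes within 1 Mb of it, 5 were called lower and 0 higher, and 12 had a negative value, with a median log2 fold change of -0.27, against -0.74 for the 10 members. With the median of the 30 nearest genes removed, 0 of the 10 members were called, ZNF282 having -0.48 (edgeR adjusted p = 0.0716) and ZNF862 -0.79 (adjusted p = 0.0712). With either Synph-293 library left out, 2 of the 10 were called, and with HEK293 replicate 1 or 2 left out, 8 and 5. Near the end of the short arm of the same chromosome, ZNF316 and ZNF12 had log2 fold changes of -0.52 each, with a neighbour median of -0.50, and of -0.02 and -0.01 with it removed.

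**Figure D3:**
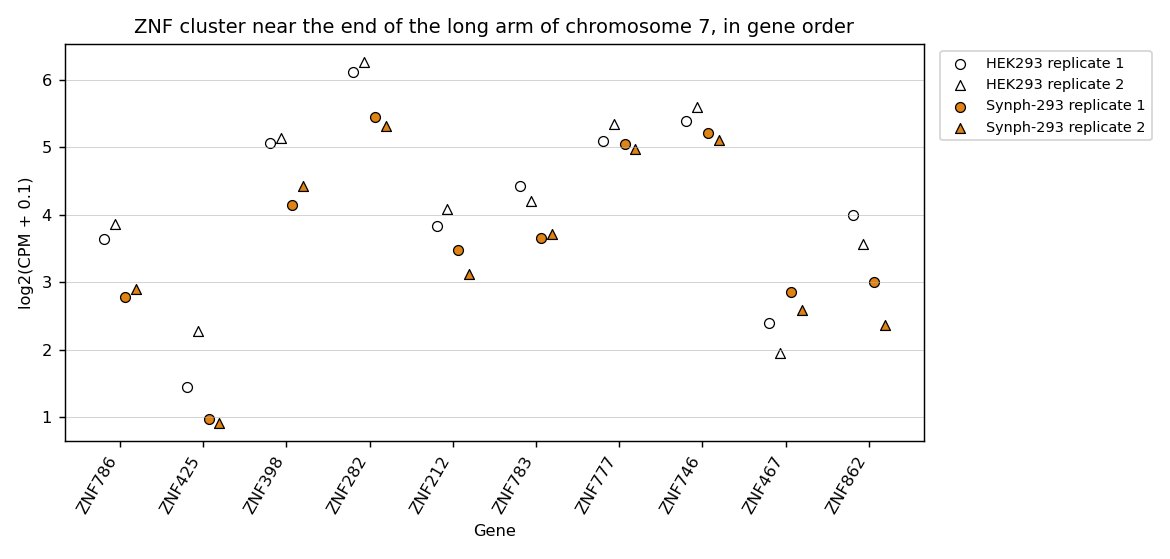
Log2(CPM + 0.1) in each library for the 10 ZNF genes of the cluster near the end of the long arm of chromosome 7, in gene order. In 9 of the 10 genes both Synph-293 libraries lie below both HEK293 libraries, and in ZNF467 they lie above.

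Members lay in 14 clusters of at least 4, defined by gaps of at most 500 kb, and 87 members belonged to one. No cluster other than that of chromosome 7 held more than 2 called members, and 9 of the 14 held none, such as the cluster at the end of chromosome 12 with ZNF10, the gene whose KRAB domain is widely used as an artificial repressor. ZNF10 averaged 21.3 CPM in HEK293 against 21.2 CPM. The largest cluster, 13 genes on the short arm of chromosome 16, held ZNF747 and ZNF646 as its called members, with a median of 0.31 over the cluster and of 0.21 over 85 other tested genes within 1 Mb. All 5 members of a cluster on the short arm of chromosome X had positive values, from 0.18 to 0.60, and 1 of them, ZNF81, was called. The median over this cluster was 0.30, against 0.41 over 40 other tested genes within 1 Mb. Of those 40 genes, 8 were called higher and 1 lower, and 5 had a negative value. Over the 237 tested members, the log2 fold change and the median of the 30 nearest genes had a Spearman correlation of 0.53 and a Pearson correlation of 0.256, ZNF334 and ZNF711 included, as a description of points that share the same 4 libraries. All 18 lower members had a neighbour median below 0, as had 103 of the 208 members that were not called, and 8 of the 11 higher members had one above 0. With the neighbours' median removed, 16 members were called, 8 of them among the 29 called before.

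**Figure D4:**
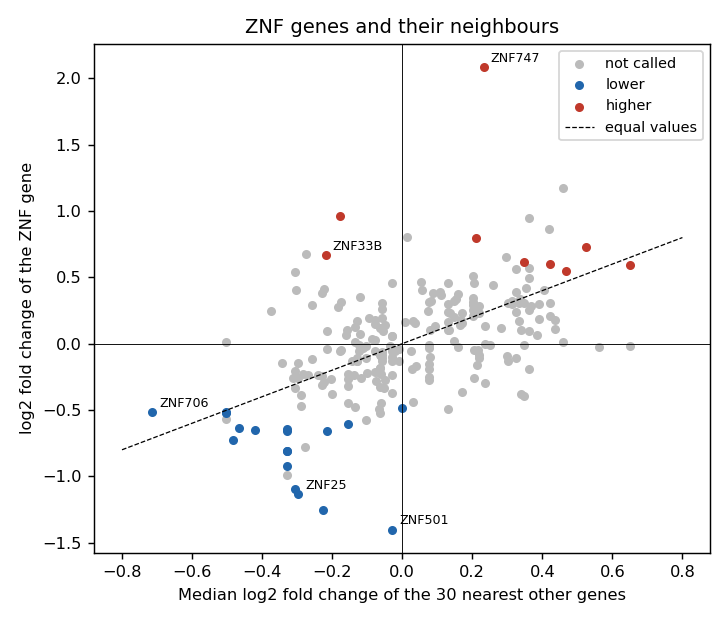
Log2 fold change of each tested member against the median over its 30 nearest genes outside the ZNF family, with the dashed line marking equal values. ZNF334 and ZNF711 lie beyond the vertical range and are not drawn. ZNF747 and ZNF501 lie far from the line, whereas ZNF706 has a value of -0.52 beside a neighbour median of -0.71.

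Among 8 members known as transcriptional activators, ZNF711 was the called one, which the definition of the set had fixed. None of the others passed, against 16.6% of all genes. Of these, ZNF143, which drives small nuclear RNA and many housekeeping promoters, had a log2 fold change of 0.11, its paralogue ZNF76 had -0.19, and ZNF410, which sustains expression of the remodeller CHD4, had -0.25. ZNF148 and ZNF281, a pair of related GC-box binding factors, had -0.0077 and -0.21, and ZNF341, an activator of STAT3, had -0.27. ZNF384 had 0.23, and the edgeR adjusted p ran from 0.354 for ZNF384 to 0.98 for ZNF148.

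Of 14 members that act in chromatin complexes, 0 were higher and 2 lower, or 14.3% called, near the 16.6% of all genes. ZNF532, a partner of ZMYND8 together with ZNF592 and ZNF687, had 52.8 and 57.2 CPM in HEK293 and 34.8 and 37.6 CPM in Synph-293, a log2 fold change of -0.60 ± 0.15 (SE; edgeR adjusted p = 0.0198). ZNF592 and ZNF687 had -0.01 and -0.05 and were not called. ZNF217, an oncogene product that works with CoREST, had 54.2 and 55.6 against 38.3 and 40.3 CPM, a log2 fold change of -0.48 ± 0.15 (SE; edgeR adjusted p = 0.0466). Both calls were lost without either Synph-293 library (edgeR adjusted p from 0.142 to 0.408). ZNF644, a partner of the methyltransferases EHMT1 and EHMT2, had -0.04, and ZNF638, which silences unintegrated retroviral DNA, had -0.10.

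Of 11 tested developmental and neural members, ZNF521 rose and ZNF804A fell, as above, or 18.2% called, near the 16.6% of all genes. ZNF423, which like ZNF521 binds EBF factors, was low, at 1.32 and 2.1 TPM in HEK293 and 2.61 and 1.65 TPM in Synph-293, and its groups overlapped. ZNF503 and ZNF365 had log2 fold changes of 0.25 and 0.29, and ZNF292, a gene of neurodevelopmental disorders, had -0.12, none of them called. Of 19 SCAN domain members, 0 were higher and 2 lower, or 10.5% called against 16.6% of all genes. One was ZNF202, a repressor of lipid transport genes, which went from 32.8 ± 3.46 to 21.1 ± 0.778 CPM (SD, n = 2 each). Its neighbours had a median log2 fold change of -0.47, and its value of -0.64 (edgeR adjusted p = 0.0217) became -0.17 with that removed. The other was ZNF232, at -0.66 (edgeR adjusted p = 0.0496). The single called members of other regions included ZNF658, a zinc-responsive repressor, at -0.65, and ZNF438, at -0.73. Their neighbour medians were -0.42 and -0.48, and with these removed neither was called, at -0.23 and -0.25 (edgeR adjusted p = 0.542 and 0.558).

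The 11 members that act on RNA, ribosomes or the spindle held no called gene, against 16.6% of all genes, and their log2 fold changes lay between -0.28 and 0.39. They include the most abundant member of the set, ZNF207, a spindle protein that binds the checkpoint factor BUB3. It was at 135 and 143 TPM in HEK293 and at 177 and 184 TPM in Synph-293, with a log2 fold change in counts of 0.39 ± 0.17 (SE; edgeR adjusted p = 0.13). Next in level came ZNF384 with 121 to 145 TPM, ZNF638 with 117 to 142 TPM and ZNF598, a ubiquitin ligase for collided ribosomes, with 95.3 to 106 TPM. The ranges of ZNF207, ZNF384 and ZNF638 overlapped over the 4 libraries and ZNF598 lay below them, while ZNF768, at 80.8 to 111 TPM, overlapped ZNF598. ZNF664, ZNF593, ZNF703, ZNF75A and ZNF263 followed, between 50.3 and 95.3 TPM, also without clear steps. The median member was at 11.1 to 12.2 TPM in the 4 libraries, below the 16.8 to 17.7 TPM of all tested protein-coding genes, and 127 to 135 members reached 10 TPM. Closest to no change among members over 10 CPM were ZNF148, ZNF10, ZNF280B and ZNF484, with log2 fold changes from -0.0104 to 0.0091 and SE of 0.15 to 0.17.

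The partners of KRAB zinc finger proteins showed small differences in both directions. Of 28 listed genes for KRAB corepressors and heterochromatin, 3 were higher and 3 lower, 21.4% against 16.6% of all genes. TRIM28 had 568 and 595 against 737 and 649 CPM, and SETDB1 at 98.9 and 103 against 95.7 and 97 CPM, neither being called (edgeR adjusted p = 0.364 and 0.806). MORC2, an ATPase of the HUSH silencing pathway, went from 46.8 and 47.8 to 76.5 and 78.6 CPM, a log2 fold change of 0.71 ± 0.15 (SE; edgeR adjusted p = 0.0078). The DNA methylation cofactor UHRF1 was also higher, at 0.65. The de novo DNA methyltransferase DNMT3B went from 83.7 and 90.0 to 56.0 and 55.9 CPM, a log2 fold change of -0.63 ± 0.15 (SE; edgeR adjusted p = 0.0155). Its paralogue DNMT3A and TASOR, the core of HUSH, were also lower, at -0.50 and -0.58. All 6 calls were lost without either Synph-293 library (edgeR adjusted p from 0.0603 to 0.347), and with the neighbours' median removed DNMT3B alone of the 6 was called, at -0.58 (edgeR adjusted p = 0.0289), MORC2 having 0.23 (adjusted p = 0.4).

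ZNF883 was the 1 member that could not be tested. Its protein-coding entry on chromosome 9 had 0, 0 and 0 counts in HEK293 replicates 1 and 2 and Synph-293 replicate 1 and 102 in Synph-293 replicate 2. A pseudogene entry of the same symbol overlaps it on the same strand and had 372, 363, 419 and 287 counts in the same order. Together they held 372, 363, 419 and 389 counts, not scaled to library size, a narrower range than that of either entry. Whether reads were assigned differently between the entries was not tested. More generally, 135 of the 238 members overlap a gene on the opposite strand in the deposited annotation, among them 15 of the 29 called. Whether the counting used strand is not stated in the sources used here, so such pairs may share reads. The ratio of TPM to CPM, which moves when the assumed transcript length does, shifted by at least 1.5-fold without overlap for 1 of 235 members, ZNF596, against 0.882% of all genes. ZNF596 had 0.73 and 1.25 TPM in HEK293 and 2.83 and 4.22 TPM in Synph-293, and was not called on counts.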

How the data were processed

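RNA-seq of 2 HEK293 and 2 Synph-293 libraries was analysed from 1 deposited gene table. Per the labels' protocols poly(A) RNA was sequenced as read pairs, and both a stranded total RNA kit and a stranded mRNA kit are named. The submitters' processing notes name STAR 2.7.1a, cutadapt 2.8, HTSeq 0.11.2, RSEM 1.3.1, Cufflinks 2.2.1, featureCounts 2.0.0 and GRCh38.p13, without role or order. The deposited counts were treated as estimated counts and were rounded before the fits. After rounding, 43 to 63 genes per library carried TPM above 0 without any count. The deposited TPM values, normalised by the authors for length and library size, were used for levels between genes.

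Differences were tested with edgeR 4.0.16 in R 4.3.3. After filterByExpr (minimum count 10, minimum total 15) and TMM scaling, groups were compared by quasi-likelihood tests without covariates, with Benjamini-Hochberg adjustment over 16421 genes and a threshold of 0.05. SE is the log2 fold change divided by the square root of F. CPM uses TMM-scaled totals. A floor of 3 counts per library, 0.178 to 0.225 CPM, was used for genes at 0 and covers counting error only. Neighbour medians come from the 30 nearest tested genes outside the ZNF family. Alternatives used DESeq2 1.42.0 and limma 3.58.1.

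Named members were ZNF334 and ZNF711, up to 12 largest rises and 12 largest falls among called members with at least 1 CPM in the higher group and non-overlapping libraries, the 10 most abundant, the 4 least changed over 10 CPM, the 3 nearest each side of the minimum, and members of role lists. Up to 4 called genes with the largest change were named from the list of corepressors, together with TRIM28 and SETDB1. A gene that this rule selects is counted but not reported here. DNMT3A, TASOR, ZNF202, ZNF316, ZNF12, ZNF706, ZNF425, ZNF467, ZNF777, ZNF883, the unchanged neighbours in clusters and the clusters themselves were chosen after their values were seen. The members and lists were chosen with earlier results of these data known.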

Additional observations from a re-analysis of the deposited data

How the results depend on the processing

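Across all genes, 1648 were higher and 1081 lower. The higher count was 1086 by limma on log2(TPM + 0.1), and the lower count was 521 and 474 by limma on log2(TPM + 1) and log2(TPM + 0.1) and 548 with the neighbours' median removed. Leaving out 1 library gave 1049 to 2183 higher and 457 to 2042 lower. Among the members, 11 higher and 18 lower became 5 and 3 by limma on log2(TPM + 0.1). The lower count was 5 by limma on log2(TPM + 1), 10 with upper quartile scaling and 6 with the neighbours' median removed. Leaving out 1 library gave 3 to 18 higher and 4 to 21 lower members. By DESeq2, 8 members were higher and 12 lower. ZNF215, at 0.59, reversed to -0.06 with the neighbours' median removed. Fits without a library rest on the spread of the group that keeps both, with the lone library assumed to vary like it. The cause of these shifts was not tested.

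The labels number the replicates alike but do not say that a number marks a shared batch. Deviations of same-numbered libraries from their group means correlated at -0.277 across genes. With the replicate number as a block, 1380 genes were higher and 719 lower, and 5 members were higher and 7 lower. Crossing the numbers, which was added after the data had been seen, gave 3251 higher and 3016 lower genes and 50 higher and 33 lower members.

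Of the 74 named members tested, the 25 called kept direction and call in 206 comparisons with an alternative and lost the call in 118. The 25 include ZNF334 and ZNF711, whose difference the definition of the set had fixed. The 49 not called stayed so in 629 and gained a call in 7. Upper quartile scaling moved the median log2 fold change of all genes from -0.013 to 0.043. A minimum summed count of 200, or symbols without a letter suffix, gave 11 and 18, and 10 and 17, higher and lower members. Members of few counts, such as ZNF843 with 60 in all, limit what these depths can show.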
